A study of Mus musculus with 4 samples.

Results

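Meiosis genes are the genes that carry germ cells through the divisions that make eggs and sperm, and 36 protein-coding members of this group were followed here in a map of FOXL2 binding in the fetal mouse ovary. The members were listed by name from their known roles in meiosis, among the 21887 protein-coding genes of the mouse annotation. FOXL2, a forkhead transcription factor, is made by pregranulosa cells, the somatic cells that surround the oocytes, and not by germ cells. Binding was mapped by ChIP-seq, in which DNA bound by a protein is recovered with an antibody and sequenced. FOXL2 ChIP was done on 2 samples, beside 2 of input (chromatin without the antibody step), all from XX gonads of CD1 embryos at stage E14.5, freed of the mesonephros. Each ChIP used a pool of 80 to 100 ovaries, so a sample is a pool of embryos and holds germ cells as well as somatic cells. The deposited data were 1 list of 11438 FOXL2 peaks, 300 bp each, on build mm10, of which 11435 lay on chromosomes 1 to 19, X and Y.

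Oocytes enter meiosis before birth, around the stage sampled here. Retinoic acid signalling induces STRA8, replicated chromosomes are held by meiotic cohesins, SPO11 cuts the DNA, and DMC1 carries out strand exchange between homologues. The synaptonemal complex joins the homologues along their length while the MSH4 and MSH5 proteins mark sites of future crossovers. Somatic cells keep many of these genes silent, in part through E2F6 and MGA, which recruit a Polycomb complex to their promoters. The question was whether and where a factor of the somatic cells had peaks at genes that act in germ cells.

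The list gives no height, score or value per replicate, so read depth is unknown, no peak has a replicate error, and no test between groups of samples could be made. Peak positions say nothing about expression, and peaks from germ cells and from somatic cells cannot be told apart in pooled ovaries. A gene without a peak may be bound below the authors' threshold.

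A FOXL2 peak lay in the gene or within 10 kb of it for 21 of the 36 meiosis genes (58.3%, against 49.6% of all protein-coding genes), and 15 had none. A gene border here is either end of the annotated gene, and distances run from the peak centre. An own-border peak lies within 1 kb of a gene's border with no border of another protein-coding gene nearer. By this definition 17 members (47.2%, against 31.3% of all genes) had a peak of their own. The others with peaks were Stra8, Stag3 and Spo11, whose peaks lay at borders of neighbouring genes (8.33% of members, against 8.91% of all genes), and M1ap, whose single peak lay deep inside the gene. Together the 21 genes had 28 peaks, of which 17 were own-border peaks, 8 lay at borders of neighbours, 2 lay deeper inside the gene and 1 lay outside, over 1 kb from every border. No peak was counted for more than 1 member. The peak number was 1 for 16 members, 2 for Sycp2, Msh4 and Terb1, and 3 for Tex15 and Mlh3.

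**Figure D1:**
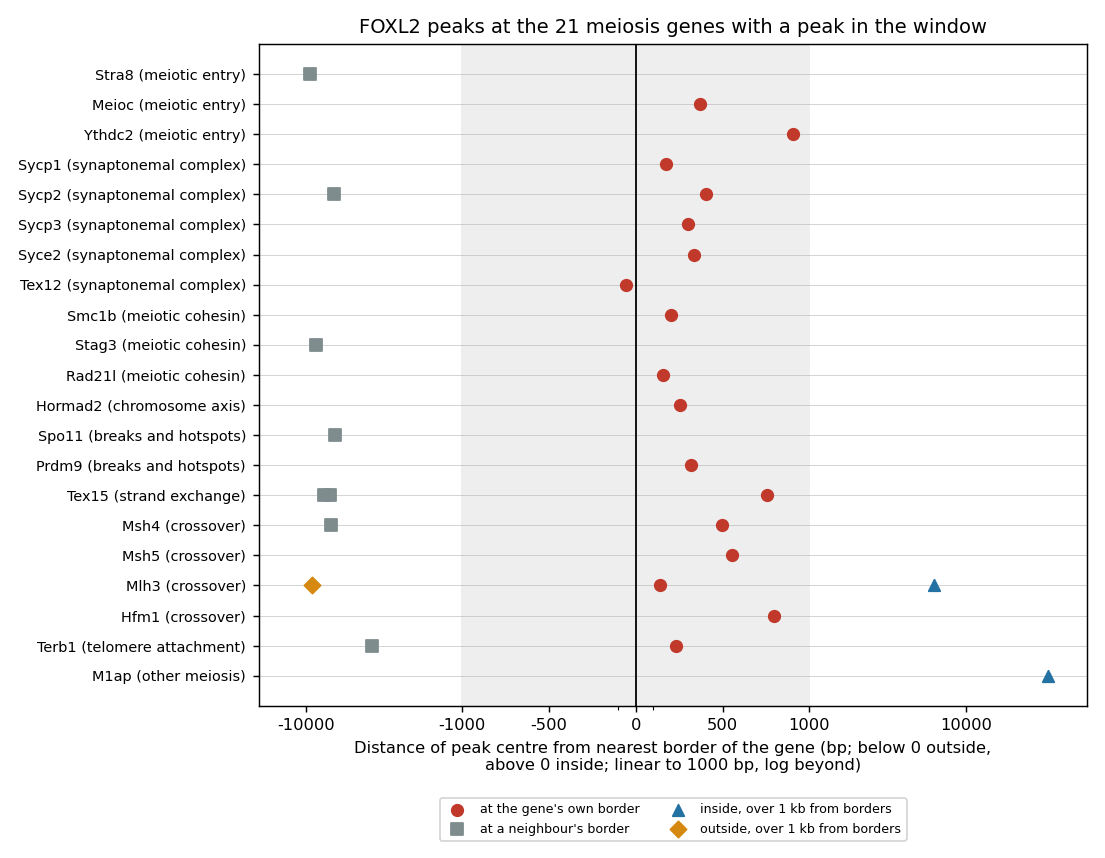
FOXL2 peaks of the 21 meiosis genes with a peak in the window, 1 row per gene with its role, plotted by the distance in bp of the peak centre from the nearest border of that gene (below 0 outside, above 0 inside; linear to 1000 bp and logarithmic beyond). Circles mark own-border peaks, squares peaks at a neighbour's border, triangles peaks deeper inside and the diamond a peak farther outside; 16 of the 17 own-border peaks lie inside the gene, and the grey band spans 1 kb on each side of the border.

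The counts by role below rest on 1 to 7 genes each, are read beside the 31.3% of all genes with an own-border peak, and were not tested. Among the 3 genes of meiotic entry, Meioc and Ythdc2 had own-border peaks and Stra8 did not. MEIOC and YTHDC2 form an RNA-binding complex that lets germ cells leave the mitotic programme. The Meioc peak, at chr11:102665571-102665870, was centred 369 bp inside the gene, and that of Ythdc2 905 bp inside, the farthest of all own-border peaks here. Stra8, the gene that triggers entry into meiosis, had 1 peak in its window, 9391 bp outside the gene and 59 bp from the border of Wdr91, a gene of endosome function.

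Genes of the synaptonemal complex carried own-border peaks in 5 of 7 cases. Sycp1, which encodes the transverse filament, had its peak 173 bp inside the gene at chr3:102935778-102936077. The lateral element genes Sycp2 and Sycp3 had peaks 407 bp inside, at chr2:178407220-178407519, and 303 bp inside, at chr10:88459741-88460040. Of the central element genes, Syce2 had a peak 333 bp inside, at chr8:84872295-84872594. Tex12, whose product pairs with SYCE2, had its peak at chr9:50561174-50561473, 55 bp outside, which made it the only own-border peak of the 17 centred outside the gene. The other two central element genes, Syce1 and Syce3, had no peak, and the nearest lay 34.3 and 16.4 kb away.

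The meiotic cohesins replace subunits of the ring that holds sister chromatids together. Smc1b had a peak 202 bp inside the gene at chr15:85131606-85131905, and this was the single own-border peak of the group with another protein-coding border within 1 kb, that of Ribc2 at 305 bp. Rad21l had a peak 154 bp inside at chr2:151670319-151670618. Stag3 had only a peak 8618 bp outside, 165 bp from the border of Map11. Rec8 had none, with the nearest peak 10.2 kb away, just beyond the 10 kb window. Of the HORMA-domain genes of the chromosome axis, Hormad2 had a peak 257 bp inside at chr11:4440792-4441091, whereas the nearest peak to Hormad1 was 37.3 kb away.

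Genes that make and place the DNA breaks had 1 own-border peak among 4. It belonged to Prdm9, the histone methyltransferase that sets recombination hotspots, and lay 319 bp inside the gene at chr17:15563906-15564205. Spo11, the enzyme that cuts the DNA, had only a peak 6533 bp outside, 7 bp from the border of Rae1, a gene of RNA export. Mei1 and Mei4, both needed for break formation, had none. Mei4, at 342 kb the longest member, was also the farthest from a peak, at 231 kb.

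Strand exchange genes had an own-border peak in 1 of 6 cases. Tex15, needed for meiotic recombination in male mice, had a peak 757 bp inside the gene at chr8:33517297-33517596. It had 2 more peaks outside, 101 and 510 bp from the border of Ppp2cb, which encodes a catalytic subunit of protein phosphatase 2A. Dmc1, the meiotic recombinase, had no peak within its window, and the nearest was 15.0 kb away. The nearest peak was 10.9 kb from Meiob and 128 kb from Spata22, whose products bind single-stranded DNA together. It was 21.9 kb from Psmc3ip and 48.0 kb from Mnd1, whose products form a complex that assists DMC1.

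Crossover genes had own-border peaks in 4 of 6 cases. Msh4 and Msh5 encode partners in 1 complex, and both had a peak inside the gene, at 498 bp (chr3:153905491-153905790) and 554 bp (chr17:35046294-35046593). Msh4 had another peak 69 bp from the border of Rabggtb. Mlh3, which also acts in mismatch repair, had 3 peaks, at 137 bp inside (chr12:85270361-85270660), 6260 bp inside and 9119 bp outside the gene. The DNA helicase gene Hfm1 had a peak 794 bp inside at chr5:106925769-106926068. Rnf212 and the X-linked Tex11 had none, with the nearest peaks 33.0 and 63.8 kb away.

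Of the 3 genes that tether telomeres to the nuclear envelope, Terb1 had an own-border peak 230 bp inside the gene, at chr8:104509508-104509807. A second peak of Terb1 lay 3780 bp outside, 112 bp from Dync1li2, a dynein subunit gene. Majin and Terb2 had none, the nearest being 18.2 and 38.1 kb away. M1ap, a gene needed for male meiosis, had a peak 33.4 kb from its nearer border at chr6:82996769-82997068, and the closest border of any other gene was that of Gm32644, 11263 bp from it.

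The 8 peaks at neighbours belonged to 7 members, 4 of which also had an own-border peak. They lay 7 to 510 bp from borders of Wdr91, Ppp1r3d, Ppp2cb, Map11, Rae1, Rabggtb and Dync1li2. When genes of all kinds were allowed to own a border, the peak near Stag3 was closest to 6330418K02Rik, at 149 bp, and each of the 17 own-border peaks stayed with its meiosis gene. Near its limit the window took in the peak 9391 bp from Stra8 and left out those 10.2 kb from Rec8 and 10.9 kb from Meiob. The 1 kb border limit lay between the peak of Ythdc2, at 905 bp, and that of Terb1 near Dync1li2, at 3780 bp.

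These counts were set against all protein-coding genes, and against that share averaged over genes of the same window length (20 bins), since longer genes hold more peaks. The members had a median length of 38.0 kb, against 17.2 kb for all genes. The members' share of 58.3% with a peak in the window (exact binomial 95% interval 40.8 to 74.5%) compared with 59.1% at the same length. Their share of 47.2% with an own-border peak (30.4 to 64.5%) compared with 38.6%. The same-length shares lay inside the intervals, so neither share was separated from that of genes of like length. The share with peaks only at neighbours was 8.75% at the same length, close to that of the members. Peaks over 1 kb from every border were found for 2 members, Mlh3 and M1ap, or 5.56% (0.68 to 18.7%), against 13.7% of all genes and 17.4% at the same length. That value also lay inside the interval. The window of 10 kb mattered here: in a window of 50 kb, 91.7% of members had a peak (77.5 to 98.2%). The share was 67.5% of all genes and 75.8% at the same length, which lay below the interval. The intervals treat genes as independent draws and do not cover the spread between pools of ovaries. Here and below they are a description and not a test, since the members and lists were chosen with earlier results of these data known.

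**Figure D2:**
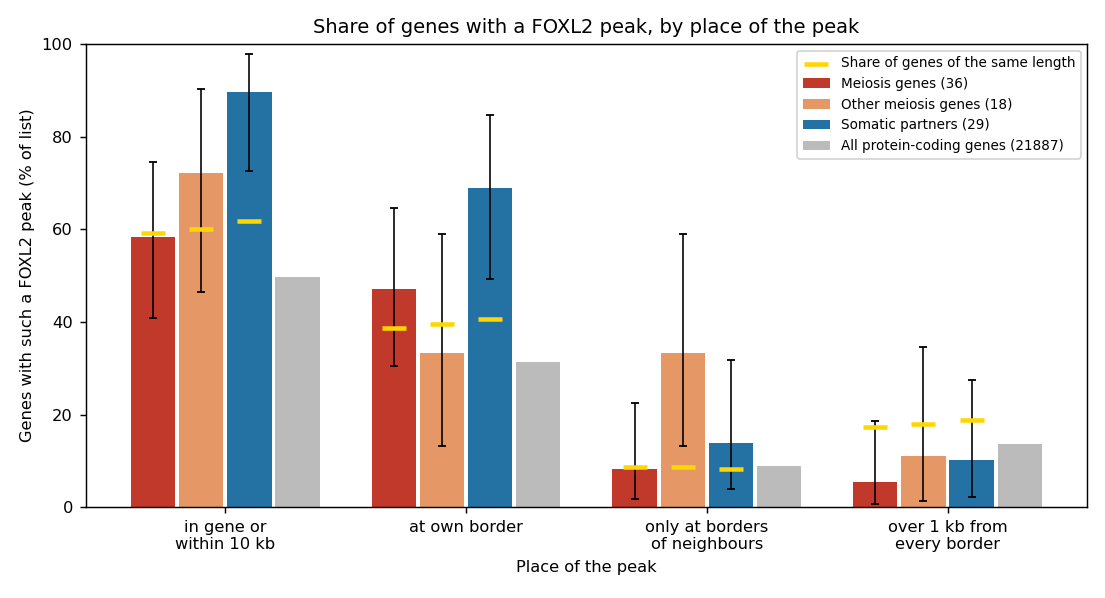
Share of genes in percent with a FOXL2 peak in each place, for the 36 meiosis genes, 18 other meiosis genes, 29 somatic partners and all 21887 protein-coding genes. Error bars are exact binomial 95% intervals and gold lines the share among genes of the same window length. For own-border peaks the meiosis genes stood at 47.2% against 38.6% at the same length, and the somatic partners at 69% against 40.6%. All protein-coding genes stood at 31.3%.

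The side of the gene was read from RefSeq promoter positions, which give the strand and an annotated start for 29 members. All 15 own-border peaks of members with a strand lay at the start of the gene and none at its end. Among all protein-coding genes with a strand, 98.3% of 5858 own-border peaks lay at the start. Members' own-border peaks had a median of 319 bp inside the border (17 peaks, quartiles 202 and 498 bp), against 189 bp for the 7265 gene and peak pairs of all genes (68 and 372 bp). Inside the gene lay 94.1% of them, against 81.5% for all genes. Borders and annotated starts are not the same position, because the border comes from the longest extent of all transcripts. Measured from the nearest annotated start, the members' median was 173 bp downstream (15 peaks), against 129 bp for all genes. Within 500 bp of an annotated start lay 13 of 15 member peaks, or 86.7%, against 85.9% for all genes.

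The 2 members whose peaks lay farther away were Msh4, 749 bp upstream of its annotated start, and Rad21l, 1935 bp upstream. The Hfm1 peak, 794 bp inside the border, was centred 28 bp upstream of the annotated start and that of Tex12 55 bp upstream. Peaks of the other 11 were centred downstream, between 81 bp for Mlh3 and 303 bp for Sycp3. These included Meioc at 135 bp, Hormad2 at 141 bp, Msh5 at 179 bp, Syce2 at 186 bp, Sycp2 at 289 bp and Prdm9 at 299 bp.

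**Figure D3:**
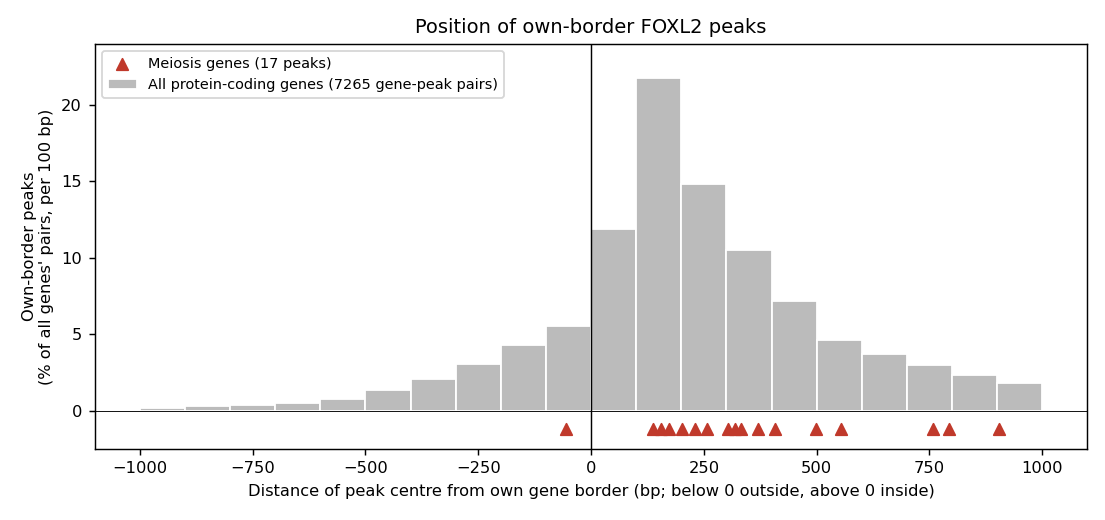
Distance in bp of own-border FOXL2 peak centres from the gene border (below 0 outside, above 0 inside). Red triangles are the 17 peaks of meiosis genes and grey bars the percentage, per 100 bp, of the 7265 gene and peak pairs of all protein-coding genes; the interval from 100 to 200 bp inside is fullest with 21.8%, and all but 1 of the triangles lie inside the gene.

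Promoter sequences show which of these starts hold motifs of the factors known to act there. They come from RefSeq (GRCm38.p6, the assembly that mm10 denotes) and are printed 5′ to 3′ on the strand of the gene, as the 250 bases before the annotated start. Capitals mark matches on either strand to TAAACA (the forkhead core), CNCCTCAG (bound by STRA8 with MEIOSIN), GCGGGA (E2F6) and CACGTG (the E-box bound by MGA with MAX). The first 3 are the members whose own-border peak covered most of this stretch, 205 bases in Tex12 (chr9:50561269-50561518, minus strand), 178 in Hfm1 (chr5:106925891-106926140, minus) and 69 in Mlh3 (chr12:85270592-85270841, minus).
Tex12: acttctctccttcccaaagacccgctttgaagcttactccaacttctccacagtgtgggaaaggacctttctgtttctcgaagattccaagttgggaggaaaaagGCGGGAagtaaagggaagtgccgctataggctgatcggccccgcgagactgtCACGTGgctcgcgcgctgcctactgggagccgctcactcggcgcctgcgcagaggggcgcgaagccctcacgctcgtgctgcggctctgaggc
Hfm1: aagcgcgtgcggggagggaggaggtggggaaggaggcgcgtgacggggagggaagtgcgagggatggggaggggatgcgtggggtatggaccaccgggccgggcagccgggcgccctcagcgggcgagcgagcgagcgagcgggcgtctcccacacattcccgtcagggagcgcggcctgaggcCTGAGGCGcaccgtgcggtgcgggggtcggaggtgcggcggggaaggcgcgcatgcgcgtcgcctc
Mlh3: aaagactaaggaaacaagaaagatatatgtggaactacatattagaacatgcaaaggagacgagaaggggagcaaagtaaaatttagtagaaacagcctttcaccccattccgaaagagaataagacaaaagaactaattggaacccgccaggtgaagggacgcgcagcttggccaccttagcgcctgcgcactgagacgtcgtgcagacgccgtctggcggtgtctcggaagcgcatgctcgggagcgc
The next 3 are the members without an own-border peak that had the most CpGs, Stag3 (chr5:138280259-138280508, plus strand), Spata22 (chr11:73329491-73329740, plus) and Hormad1 (chr3:95559427-95559676, plus), which tied with Psmc3ip and was taken by alphabetical order.
Stag3: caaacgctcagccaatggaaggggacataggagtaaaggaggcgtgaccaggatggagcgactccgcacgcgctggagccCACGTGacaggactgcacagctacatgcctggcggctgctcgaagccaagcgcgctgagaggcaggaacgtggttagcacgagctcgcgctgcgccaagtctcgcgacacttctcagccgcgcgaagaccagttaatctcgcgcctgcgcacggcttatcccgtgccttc
Spata22: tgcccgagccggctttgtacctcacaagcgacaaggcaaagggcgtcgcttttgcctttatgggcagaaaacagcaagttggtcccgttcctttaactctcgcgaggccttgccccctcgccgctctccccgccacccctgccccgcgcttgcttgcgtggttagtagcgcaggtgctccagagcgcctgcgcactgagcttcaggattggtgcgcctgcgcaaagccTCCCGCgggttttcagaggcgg
Hormad1: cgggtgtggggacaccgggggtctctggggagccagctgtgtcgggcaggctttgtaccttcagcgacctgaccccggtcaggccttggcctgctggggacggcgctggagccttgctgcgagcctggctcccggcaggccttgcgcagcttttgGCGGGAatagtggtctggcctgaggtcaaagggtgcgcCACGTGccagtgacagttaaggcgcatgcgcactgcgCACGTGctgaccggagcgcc

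The stretches of Tex12, Hfm1 and Mlh3 held 20, 34 and 16 CpGs, and those of Stag3, Spata22 and Hormad1 held 26, 22 and 19. The second set was chosen for its high CpG number, so these counts do not compare the sets. An E2F6 match and an E-box stood together in Tex12, which had a peak, and in Hormad1, which had none. No stretch held the forkhead core.

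Over whole promoter windows (250 bases before to 50 after the outermost annotated start), CpG number went with own-border peaks across the genome. All protein-coding genes with an own-border peak had a median of 23 CpGs (n = 5531), against 6 for those without (n = 11961). Of genes with 0 or 1 CpG, 1.2% had an own-border peak, and of those with 34 to 65, 62.2%. Among meiosis genes the medians were 19 CpGs with an own-border peak (n = 15, range 2 to 41) and 17 without (n = 14, range 5 to 30), and the ranges overlapped. The lowest counts among members with a peak were those of Rad21l with 2 and Msh4 with 6, whose annotated starts lay away from the peak. Among members without one, Stag3 had 30 CpGs, Spata22 25, Hormad1 and Psmc3ip 24 each and Rnf212 22. For the 29 members with a promoter, 51.7% had an own-border peak (exact binomial 95% interval 32.5 to 70.6%). Averaged over other genes in the same of 10 bins of CpG number, the share was 42.1%, which lay inside the interval.

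**Figure D4:**
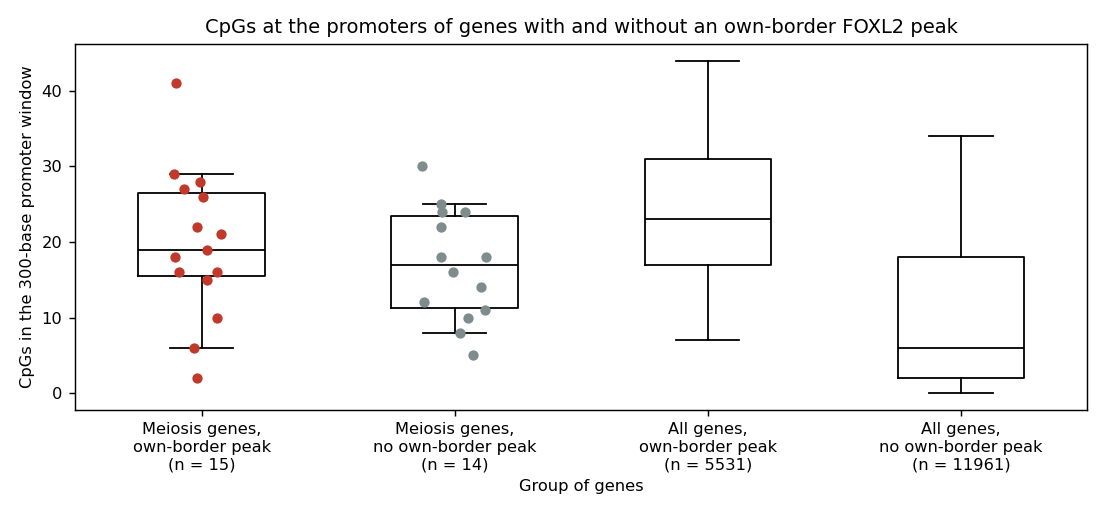
CpGs in the promoter window of meiosis genes with (n = 15) and without (n = 14) an own-border FOXL2 peak, and of all protein-coding genes with (n = 5531) and without (n = 11961) one. Points are single genes, boxes the quartiles with the median, and whiskers the 5th and 95th percentiles; the medians are 19, 17, 23 and 6 CpGs.

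The E2F6 motif was found in 10 of 15 promoters of meiosis genes with an own-border peak, in 9 of 14 without one, and in 25.8% of 17492 promoters of all protein-coding genes (40.6% of those with an own-border peak and 18.9% of those without). The STRA8 and MEIOSIN motif was found in 6 of 15 with a peak, those of Sycp1, Tex12, Hormad2, Msh5, Prdm9 and Hfm1. Of the 14 without a peak M1ap held it, and 8.57% of all promoters did (10% with an own-border peak and 7.89% without). E-boxes were in 3 of 15 and 3 of 14, against 7.91% of all (11.3% with an own-border peak and 6.36% without), and Sycp3 and Hormad1 had 2 each. The forkhead core was in none of the 15 promoters with a peak, in that of Syce3 among the 14 without, and in 11.5% of all promoters (8.43% with an own-border peak and 13% without). Overlapping matches occurred in 32 promoters between the STRA8 and MEIOSIN and the E2F6 motifs, in 12 between the forkhead core and the E-box, and in 2 between the E2F6 motif and the E-box. A match is a string of letters and not a bound site. Most member peaks were centred downstream of the window, so for them absence of a motif there says nothing of the peak centre. The peaks of Tex12 and Hfm1 covered 205 and 178 of the 250 bases before the start, stretches without a forkhead core.

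Other genes of meiosis, a list of 18 outside the members, had a peak in the window in 13 cases, or 72.2% (exact binomial 95% interval 46.5 to 90.3%). The share was 49.6% of all genes and 60.1% at the same length. Own-border peaks were found for 6 of 18, or 33.3% (13.3 to 59%), against 31.3% of all genes and 39.6% at the same length. For both results the same-length share lay inside the interval. That of Meiosin (listed as Bhmg1), the partner of STRA8, lay 92 bp inside the gene, and those of Brme1, Rad51ap2 and Six6os1 lay 114, 194 and 495 bp inside. Spdya, an activator of CDK2 at telomeres, had a peak centred 142 bp inside its border and another 94 bp downstream of an inner annotated start. The own-border peak of Mcmdc2 was nearer to the noncoding gene Snhg6, at 102 bp. In 6 of the 18, among them Rec114, Top6bl and Cntd1, all peaks lay at borders of neighbours, which were nearer than the gene's own border. Rec114, Top6bl and Cntd1 also had a peak within 1 kb of their own border, at 755, 204 and 345 bp. These peaks were given to Hcn4, Rce1 and Coa3, whose borders were nearer, at 512, 115 and 90 bp. The share with peaks only at neighbours, 33.3% (exact binomial 95% interval 13.3 to 59%), was above the 8.91% of all genes. It was also above the 8.72% at the same length, which lay below the interval. This list was not matched for the number of neighbouring borders. For the 36 members, matching that number as well as length moved the background share from 8.75% to 13.3%.

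Many meiosis proteins have a counterpart that every dividing cell uses, and these genes were looked at beside them. Somatic partners were 29 genes of cohesion, DNA repair and other functions that meiosis shares with dividing cells. They had an own-border peak in 20 cases, or 69% (exact binomial 95% interval 49.2 to 84.7%). This compared with 31.3% of all genes and 40.6% at the same length, the latter below the interval. This list was not matched for promoter CpG number, with which own-border peaks went across the genome, and was not tested against the meiosis genes. The 9 paralogues in it, Smc3 counted among them, had own-border peaks in 7 cases, or 77.8% (exact binomial 95% interval 40 to 97.2%). The share was 31.3% of all genes and 40.6% at the same length, the latter inside the interval. Smc1b had a peak 202 bp inside, and Smc1a one 62 bp outside. Rad21l had a peak 154 bp inside and Rec8 had none, whereas the peaks in the Rad21 window lay 189 and 824 bp from Gm52217, which overlaps it. Stag3 had no own-border peak. Stag2 had 2, at 256 bp outside and 724 bp inside, and Stag1 had 2 far inside the gene, of which 1 lay 122 bp downstream of an inner annotated start. Smc3, the cohesin subunit shared by mitosis and meiosis, had a peak 505 bp inside. The mismatch repair genes Msh3 and Msh6 had peaks 39 and 318 bp inside, alongside those of Msh4 and Msh5 at 498 and 554 bp.

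The somatic partners outside the paralogues with own-border peaks closest to the border were Rad50, 8 bp outside the gene, then Exo1, 93 bp outside. With genes of all kinds allowed, the Exo1 peak was nearer to Gm36360, at 80 bp. Next came Atm, Mre11a, Rpa2, Sun1, Cdk2 and Rpa1, at 121, 129, 171, 197, 201 and 215 bp from the border, the last of them outside. The border of Atm had that of Npat near it, 182 bp from the peak. Another protein-coding border lay within 1 kb of 5.88% of own-border peaks of the 36 meiosis genes (1 of 17). The share was 33.3% both for somatic partners (7 of 21) and for the other meiosis genes (2 of 6). It was 15.2% of all 7265, and the difference between these shares was not tested.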

How the data were processed

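Per the submitters' processing notes, Bowtie 1.2, Picard 1.110, bedtools 2.24.0, HOMER 4.9 and build mm10 were used; what each did, with which parameters, is not given. Start and end positions of peaks were deposited by the authors as 1 list for both ChIP samples, with no score. How replicates and inputs were combined is not stated.

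Starts were converted to 1-based positions. Genes came from a RefSeq table of GRCm38.p6, and strand, starts and promoter sequence from a RefSeq promoter table. That table holds none for Ythdc2, Tex11, Tex15, Spo11, Meiob, Majin and Terb2. All 83 listed symbols matched, 4 by synonym. Peaks were assigned with Python 3.11.15, pandas 2.3.3 and NumPy 2.4.6, and intervals with SciPy 1.17.1. The script was tested on simulated data. A same-length share is the mean, over the listed genes, of the share among other protein-coding genes in the same of 20 window-length bins. No test was made. Every member is named; of the lists of other meiosis genes and of other somatic partners, up to 8 with own-border peaks in order of distance, and the paralogues, of which a few are not reported here. Rec114, Top6bl and Cntd1 were named after their values were seen. The members and lists were chosen with earlier results of these data known. Depth per sample is unknown. Alternatives were other windows, border distances, peak edges, gene kinds, merging of peaks and backgrounds.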

Additional observations from a re-analysis of the deposited data

How the results depend on the processing

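The number of meiosis genes with an own-border peak was 17 in each setting except a border distance of 500 bp, where it was 13. The windows of 5 and 50 kb could not change this number, since an own-border peak lies within 1 kb. Neither could the backgrounds, which alter only the share compared. At 500 bp the share was 36.1%, against 33% at the same length and 26.8% of all genes. A window of 5 kb left 18 genes with a peak (50%, against 55.6% at the same length and 45.9% of all genes). In that window 0 genes had all their peaks at neighbours, against 6.63% at the same length and 6.54% of all genes. A window of 50 kb gave 33 genes with a peak (91.7%, against 75.8% at the same length and 67.5% of all genes). It gave 15 with peaks only at neighbours (41.7%, against 17.1% and 17.8%). It gave 5 with a peak away from every border (13.9%, against 33.2% and 28.9%). In that window all 3 same-length shares lay outside the exact 95% intervals of the members, which were 77.5 to 98.2%, 25.5 to 59.2% and 4.67 to 29.5%; the cause was not tested. With a border distance of 500 bp, 6 genes had a peak away from every border (16.7%, against 25% at the same length and 20.1% of all genes). Peak edges, gene kinds and merging of peaks changed no count of meiosis genes, and the backgrounds could change none. When the number of neighbouring borders was also matched, the same-length share was 65.5% for any peak and 13.3% for peaks only at neighbours. The background by CpG number was added after the data were examined. A stricter peak threshold and leaving out a replicate could not be run on 1 list without scores. No paired analysis was possible because the 2 ChIP samples share that list. Weak binding cannot be told from none.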
